A study of Homo sapiens with 6 samples.

Results

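The forkhead (FOX) and SOX genes were compared between MCF10A cells and MCF10A cells that stably express SNAI1 (MCF10A-SNAI1). A gene was included when a probe set carried its symbol alone and the symbol was FOX, a letter from A to S and a number, or SOX and a number. FOXA1, FOXC2 and FOXM1 were left out. This gave 55 genes of 18417 in all, 36 FOX and 19 SOX genes, each with a single such probe set. Another 8 probe sets listed a FOX gene together with other genes, 7 of them FOXD4 or its copies and 1 FOXO3 with FOXO3B, and were not used.

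FOX proteins bind DNA through a winged-helix forkhead domain, and SOX proteins through an HMG box that bends the helix. Both families hold lineage regulators, such as SOX2 in pluripotent cells, SOX9 in cartilage and neural crest, and FOXO proteins, which act in the nucleus when AKT signaling is low. In the mammary gland, FOX and SOX factors take part in the choice between basal, luminal and progenitor states.

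RNA levels were read on 6 Affymetrix HuGene arrays, 3 for each line. MCF10A, used here untransfected, derives from human mammary epithelium, is immortalized and does not form tumors. The MCF10A-SNAI1 line, made in another laboratory, carries a SNAI1-Flag plasmid whose promoter joins chicken beta-actin sequence to an enhancer of CMV, and was selected with puromycin. The growth medium was MEGM with cholera toxin. No array of a vector control was analysed here, so the effects of SNAI1, of plasmid and selection, and of a separate culture history cannot be told apart. The labels and the article do not state whether the line is 1 clone. Replicates are described as independent in the article, without saying whether they were separate cultures, so p-values measure the spread between these arrays alone.

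All values are deposited log2 values. Log2 fold changes give MCF10A-SNAI1 over MCF10A, and a gene was called when limma, adjusted by Benjamini-Hochberg over all probe sets, put its adjusted p under 0.01 and the lines differed by more than 2-fold. The array medians lay between 6.04 and 6.09. SNAI1 was at 5.80, 5.73 and 5.77 in MCF10A and at 10.50, 10.53 and 10.50 in MCF10A-SNAI1 cells (log2 fold change 4.75, standard error, SE, 0.056, limma adjusted p = 7.06e-08). All 9 measured markers of basal mammary epithelium were called lower in MCF10A-SNAI1 cells, their summed log2 level being 99.9 to 100.4 on the MCF10A arrays and 62.9 to 64.3 on the others. KRT5, the basal keratin, was still at 11.30 in MCF10A-SNAI1 cells, against 13.53. Of 12 fibroblast markers, 6 were called higher and none lower (summed log2 level 66.6 to 67.4 and 94.8 to 95.6). The part of this shift in the values below was not tested.

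Few FOX and SOX genes differed between the lines. Of the 55 genes, SOX15 and FOXP1 were called lower. No gene was called higher, and 53 had no call. The share called was 3.64%, beside 5.64% of all genes (2.54% called lower and 3.1% called higher). At an adjusted p below 0.01 without the fold threshold, 7 of the 55 genes passed (12.7%, against 23.2% of all genes). Of these, 4 were lower and 3 higher, where 11.2% of all genes were lower and 12.1% higher. Apart from SOX15 and FOXP1, 5 of the 55 genes passed while under 2-fold, beside 17.6% of all genes that did so. Unadjusted, limma gave a p below 0.05 for 12 of the 55 genes (21.8%, against 42.3% of all genes). The methods' t-test also called 0 genes higher and the same 2 genes, FOXP1 and SOX15, lower. The median log2 fold change was 0.0025 for the FOX and SOX genes and -0.0132 for all genes. The median size of the log2 fold change, regardless of sign, was 0.0629 and 0.1499, and the median standard error 0.0871 and 0.0783. For all 53 genes that were not called, the 95% interval of the log2 fold change lay between -1 and 1 (96.4% of the 55, against 91.4% of all genes). A 2-fold difference of the deposited values was therefore outside the interval of each of the 53. In RNA of whole cultures, fewer expressing cells and less RNA per cell cannot be told apart. Where a probe set reads mostly background, its value can hide a larger difference in RNA.

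**Figure D1:**
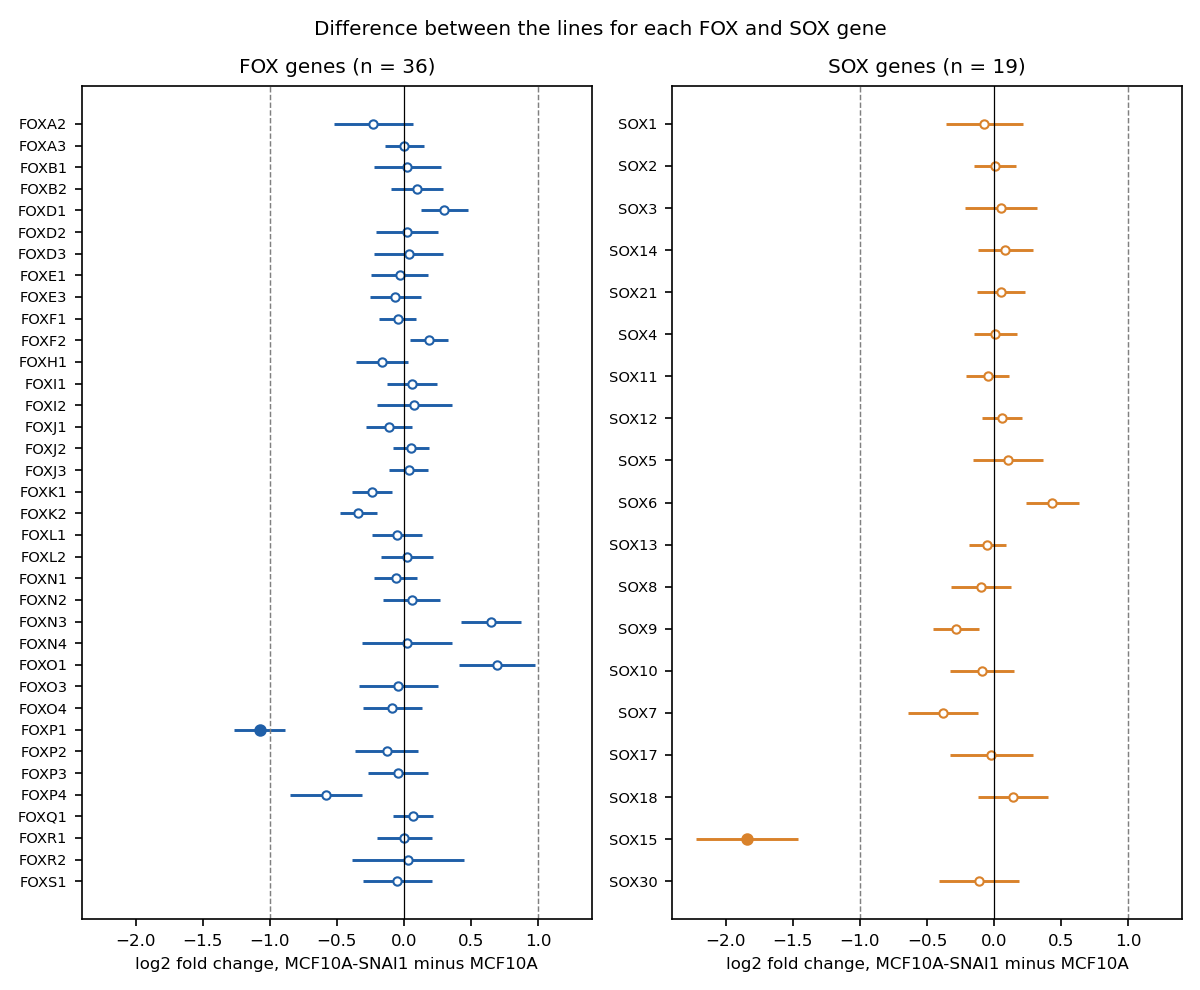
Log2 fold change (MCF10A-SNAI1 minus MCF10A) of each FOX gene (blue) and SOX gene (orange), with bars for the 95% interval from limma on 3 arrays per line. Filled points are called genes and dashed lines mark a 2-fold difference; only SOX15 at -1.84 and FOXP1 at -1.08 lie beyond them.

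The table held no detection calls, and levels cannot be set against each other between probe sets. The FOX and SOX genes read between 3.26 and 9.90 in MCF10A and between 3.13 and 9.56 in MCF10A-SNAI1 cells. For orientation, 26 genes of other tissues, such as liver, lens and testis genes, read from 3.05 to 7.68 in MCF10A and from 3.12 to 8.42 in MCF10A-SNAI1 cells. The upper ends belonged to CPS1, a urea cycle enzyme gene that was higher but under 2-fold at 0.74 (limma adjusted p = 3.62e-04). The next highest gene, PRM2, read 6.66 and 6.58. Of the 55 FOX and SOX genes, 47 in MCF10A and 51 in MCF10A-SNAI1 cells had a mean at or under the upper end. That end is set by CPS1 alone and differs between the lines, so these are not counts of genes at background. The median level of the 55 genes was 6.68 and 6.55, near PRM2. FOXP1, at 7.665 and 6.589, was under the upper end in both lines through CPS1 alone. It lay above PRM2 in MCF10A and just above it in MCF10A-SNAI1 cells. SOX15 was under the upper end in MCF10A-SNAI1 cells only, where it also lay under PRM2, at 6.27.

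**Figure D2:**
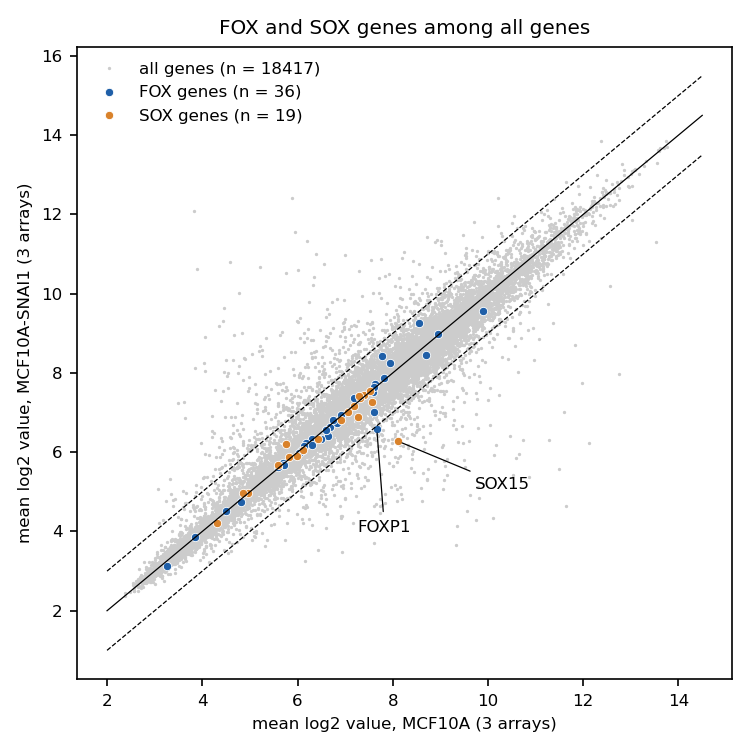
Mean log2 value of each gene in MCF10A (x axis) and MCF10A-SNAI1 cells (y axis), 3 arrays each, for all genes (grey), FOX genes (blue) and SOX genes (orange). The solid line marks equal values and the dashed lines a 2-fold difference; SOX15 and FOXP1 are the FOX and SOX genes under the lower dashed line.

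SOX15, the only SOX group G gene, had the largest difference of the 55. It was at 8.40, 7.91 and 8.04 on the MCF10A arrays and at 6.20, 6.08 and 6.54 on the MCF10A-SNAI1 arrays. All MCF10A arrays lay above all MCF10A-SNAI1 arrays. SOX15 fell by 1.84 on the log2 scale, 3.59-fold (95% interval -2.22 to -1.46, SE 0.16, limma adjusted p = 2.13e-04). Its range was -1.97 to -1.70 when each array was left out in turn. SOX15 is known from myogenic cells and placenta and from stratified epithelium.

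The P group, repressors that act as dimers, held the called FOX gene. FOXP1, known from B-cell, lung and heart development, was at 7.54, 7.77 and 7.68 in MCF10A and at 6.66, 6.52 and 6.59 in MCF10A-SNAI1 cells, without overlap. It fell by 1.08 on the log2 scale, 2.11-fold (95% interval -1.26 to -0.89, SE 0.080, limma adjusted p = 1.03e-04). The interval includes falls of less than 2-fold, and leaving out each array in turn gave -1.14 to -1.02. FOXP4 was at 7.80, 7.36 and 7.66 in MCF10A and at 6.999, 7.070 and 7.009 in MCF10A-SNAI1 cells. Its arrays did not overlap either, and it was lower but under 2-fold (log2 fold change -0.58, SE 0.11, limma adjusted p = 0.00929). FOXP2, known from speech and motor circuits, and FOXP3, the regulatory T cell factor, did not pass, with differences of -0.13 and -0.04 on the log2 scale (limma adjusted p = 0.459 and 0.825). Both had overlapping arrays.

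Because the overexpressed factor SNAI1 binds E-boxes with the letters CAGGTG, the 250 bases before each annotated start site were searched for these letters on both strands. Start sites were in the RefSeq promoter table (GRCh38.p14) for 38 of the 55 genes, with 54 windows in all. Of these, 9 windows held the E-box (16.7%), as did 17.5% of the 35116 windows of the table and 16.8% of the windows of genes on the array. FOXP1 had 6 windows, of which 2 held it, and FOXP4 had 1, which held it. The windows of FOXK2, FOXN3 and FOXO1 (1 each) and of SOX6 (5), which also passed an adjusted p of 0.01, did not hold it. The shares above are per window, and a gene with more windows has more room for a match. SOX15, the other called gene, had no entry and was not searched. Windows of a gene can share start regions, and the array does not tell which start was used. Shown are the 2 windows with the E-box of FOXP1, the called FOX gene with an entry, and the window of its relative FOXP4. The other FOXP1 windows are not shown. All are given 5′ to 3′ on the gene's strand. Capitals mark the E-box (CAGGTG or CACCTG) and a SOX core motif (ACAATG or CATTGT).
FOXP1, chr3:71064925-71065174, minus strand: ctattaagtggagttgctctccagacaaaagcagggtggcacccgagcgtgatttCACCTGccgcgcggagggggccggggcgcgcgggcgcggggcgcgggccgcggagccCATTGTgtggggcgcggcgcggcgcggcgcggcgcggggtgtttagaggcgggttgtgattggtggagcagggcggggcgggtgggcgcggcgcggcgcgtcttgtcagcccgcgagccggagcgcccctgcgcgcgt
FOXP1, chr3:71543558-71543807, minus strand: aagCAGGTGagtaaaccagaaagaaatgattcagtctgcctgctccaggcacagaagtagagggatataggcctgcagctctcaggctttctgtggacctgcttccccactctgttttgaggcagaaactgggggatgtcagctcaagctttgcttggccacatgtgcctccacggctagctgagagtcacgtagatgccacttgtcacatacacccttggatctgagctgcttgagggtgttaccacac
FOXP4, chr6:41546131-41546380, plus strand: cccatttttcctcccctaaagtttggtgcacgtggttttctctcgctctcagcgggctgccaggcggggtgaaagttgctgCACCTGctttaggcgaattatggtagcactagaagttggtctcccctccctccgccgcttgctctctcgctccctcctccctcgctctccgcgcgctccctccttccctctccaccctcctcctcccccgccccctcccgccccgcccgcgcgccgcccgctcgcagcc
In the first FOXP1 window the E-box letters lay at bases -195 to -190 from the start site, in the second at -247 to -242, and in FOXP4 at -169 to -164. The other genes with an E-box window were FOXI1, FOXJ2, FOXN1, FOXR1, SOX1 and SOX30, none of which passed an adjusted p of 0.01. A match is a run of letters and does not show binding.

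Of the other FOX genes, FOXK2 passed on the lower side. FOXK1 and FOXK2 are nuclear factors of nutrient and autophagy control. FOXK2 was at 9.93, 9.89 and 9.88 in MCF10A and at 9.61, 9.54 and 9.52 in MCF10A-SNAI1 cells, a narrow but complete separation. Its log2 fold change was -0.34 (SE 0.058, limma adjusted p = 0.00509). FOXK1 lay on the same side at -0.24, also without overlap, but did not pass (standard error 0.064, adjusted p = 0.0355).

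FOXN3 and FOXO1 passed on the higher side. FOXN3, a checkpoint-associated repressor, was at 7.90, 7.81 and 7.58 in MCF10A and at 8.43, 8.35 and 8.47 in MCF10A-SNAI1 cells, without overlap. It was higher but under 2-fold (log2 fold change 0.65, SE 0.094, limma adjusted p = 0.00225). The other N genes lay between -0.06 and 0.06. FOXO1, a target of AKT in insulin and growth factor signaling, was at 8.76, 8.56 and 8.36 in MCF10A and at 9.39, 9.26 and 9.11 in MCF10A-SNAI1 cells. The lowest MCF10A-SNAI1 array thus lay above the highest MCF10A array (log2 fold change 0.69, SE 0.12, limma adjusted p = 0.00511). FOXO3 and FOXO4, its relatives, were at -0.04 and -0.09 (95% intervals -0.34 to 0.25 and -0.31 to 0.14), with overlapping arrays. The FOXO3 value comes from the probe set that lists FOXO3 alone. It read 6.08 and 6.04, within the range of the genes of other tissues, where background can hide a larger difference in RNA.

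**Figure D3:**
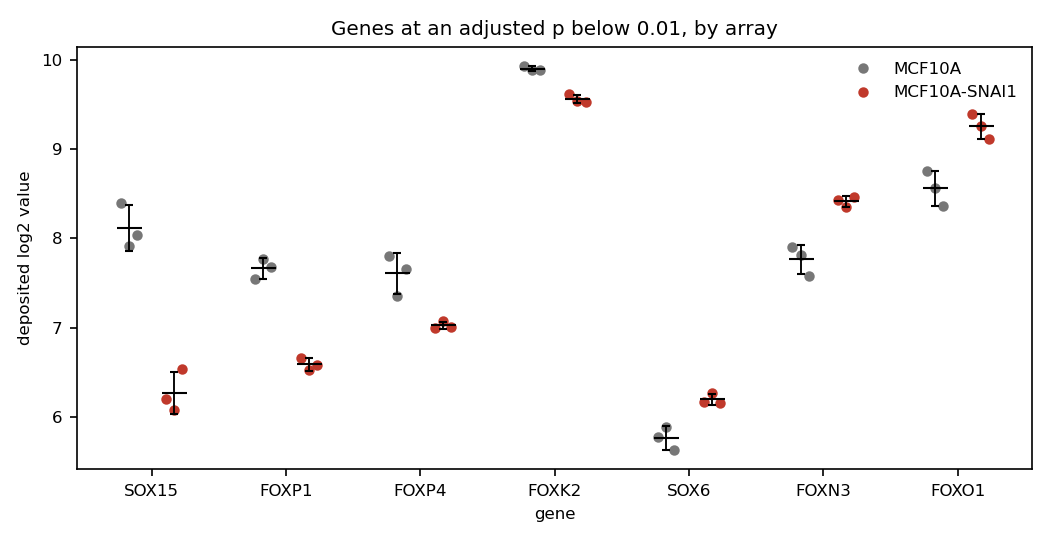
Deposited log2 value on each array for the genes at an adjusted p below 0.01 from limma, grey for MCF10A and red for MCF10A-SNAI1. Black bars give the mean and SD over 3 arrays. The arrays of the lines do not overlap for any of these genes, and SOX15, at 8.12 and 6.27, shows the widest gap.

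SOX6 was the only SOX gene to pass on the higher side. SOX6 belongs to the D group, which lacks a transactivation domain and works beside SOX9 in cartilage. It was at 5.78, 5.89 and 5.63 in MCF10A and at 6.17, 6.27 and 6.16 in MCF10A-SNAI1 cells, without overlap. Its log2 fold change was 0.43 (SE 0.083, limma adjusted p = 0.00852). The other D genes, SOX5 and SOX13, were not called, and the group spanned -0.05 to 0.43. Of the 5 windows of SOX6, 2 held a SOX core motif (ACAATG or CATTGT), and 1 of these also held a FOXO core motif (GTAAACA or TGTTTAC). Such matches are runs of letters and do not show binding. The window with both is shown, with the motifs in capitals.
SOX6, chr11:16356547-16356796, minus strand: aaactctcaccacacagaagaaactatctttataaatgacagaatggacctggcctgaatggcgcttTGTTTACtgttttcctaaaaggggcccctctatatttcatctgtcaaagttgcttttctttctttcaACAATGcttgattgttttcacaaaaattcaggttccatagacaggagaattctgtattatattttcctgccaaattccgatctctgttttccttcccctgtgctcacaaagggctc
The SOX core letters lay in 8 of the 54 windows of the FOX and SOX genes (14.8%), in 9.29% of all windows and in 6.85% of the 20109 windows of genes on the array. The FOXO core letters lay in 3 of them (5.56%), in 2.98% of all windows and in 2.34% of those of genes on the array.

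The 5 genes under 2-fold lost the threshold more easily. With each array left out in turn, FOXN3 kept an adjusted p below 0.01 in 5 of 6 fits, FOXO1 in 2, and FOXK2, FOXP4 and SOX6 in 1 each, whereas SOX15 and FOXP1 kept it in all 6. The number of FOX and SOX genes that passed was 7 with all arrays. It was 4 without MCF10A replicate 1, 5 without MCF10A replicate 2 and 3 without MCF10A replicate 3. Without MCF10A-SNAI1 replicate 1 it was 4, and without MCF10A-SNAI1 replicate 2 or 3 it was 3.

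The remaining 48 genes had log2 fold changes between -0.38 and 0.30, and 45 of them lay within 0.25 of 0. Of the 48, 6 had arrays that did not overlap between the lines, beside 13 of all 55 (23.6%, against 48.3% of all genes). The 6 were SOX7 at -0.38, SOX9 at -0.29, FOXK1 at -0.24 and FOXH1 at -0.16, and FOXD1 at 0.30 and FOXF2 at 0.19. Their adjusted p from limma was 0.0477, 0.0277, 0.0355, 0.227, 0.0249 and 0.0648. SOX7 is a group F factor of blood vessels, FOXH1 a partner of SMAD proteins, FOXD1 a kidney stroma factor and FOXF2 a mesenchymal factor. SOX9, a group E factor of cartilage and of mammary progenitors, was at 7.57, 7.48 and 7.63 in MCF10A and at 7.27, 7.20 and 7.35 in MCF10A-SNAI1 cells. Its 95% interval was -0.46 to -0.11. FOXQ1, a factor often described in breast cancer cells, was at 6.75 ± 0.061 and 6.82 ± 0.044 (SD, n = 3 arrays), with a 95% interval of -0.08 to 0.22.

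Among SOX genes that are often used as stem or progenitor markers, SOX2 was at 4.97 ± 0.081 and 4.97 ± 0.028 (SD, n = 3 arrays). Its 95% interval of the log2 fold change was -0.15 to 0.16. This level lay within the range of the genes of other tissues, where background can hide a larger difference in RNA. SOX4, a group C gene linked to TGFß signaling, was at 7.52 ± 0.092 and 7.53 ± 0.035 (SD, n = 3 arrays), with an interval of -0.15 to 0.17. The direction of both, near 0, turned with quantile normalization, at -0.0004 and -0.0021. SOX3 and SOX18 differed by 0.05 and 0.14 on the log2 scale (limma adjusted p = 0.837 and 0.466), and FOXJ3 0.04 (adjusted p = 0.774). The C group spanned -0.05 to 0.06, the B1 group -0.07 to 0.05 and the E group -0.29 to -0.09.

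FOXO1 was then set beside genes of its pathway, from lists written for this comparison. Of 28 measured upstream regulators of FOXO proteins, 3 were called higher, 1 lower and 24 were not called (14.3% called, against 5.64% of all genes). The acetyltransferase gene EP300 was higher at 1.62, the FOXO kinase SGK1 at 1.26 and the insulin receptor substrate IRS1 at 1.04, and the phosphoinositide phosphatase INPP4B was lower at -1.22. Without MCF10A replicate 3, IRS1 was at 0.96 and no longer called. Under 2-fold, another 4 regulators passed on the higher side and 7 on the lower, among them the PI3-kinase subunits PIK3R3 at 0.74 and PIK3CD at -0.76. The median of the list was 0.0008. Its genes read brighter than all genes, with a median level of 8.83 against 6.71 in MCF10A. The share over all genes is therefore not matched for level. IRS2, at 0.37, stands in this list and in the target list below, and counts as higher under 2-fold in both.

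Of 32 measured genes known as FOXO targets, 8 were called higher, none lower and 24 were not called. The share called higher over all genes was 3.1%. SESN3, a stress-induced inhibitor of TORC1, was at 3.85 ± 0.13 and 8.12 ± 0.074 (SD, n = 3 arrays; log2 fold change 4.27, SE 0.085, limma adjusted p = 3.16e-07). The transcriptional regulators CITED2 and BCL6 were higher at 2.67 and 2.55, and TXNIP, which binds thioredoxin, at 2.11. The ubiquitin ligase FBXO32 was higher at 2.06, GADD45B at 1.4, and the mitophagy and autophagy genes PINK1 and GABARAPL1 at 1.11 and 1.07. GABARAPL1 was at 0.96 and lost its call without MCF10A replicate 1, and the methods' t-test did not call it either (adjusted p = 0.0121). Under 2-fold, 6 targets passed on the higher side and 2 on the lower, including catalase CAT at 0.65 and the mitochondrial superoxide dismutase SOD2 at -0.86. The median log2 fold change of the list was 0.24, against -0.0132 for all genes. These genes have other regulators as well. On western blots the article reports intense basal AKT activation in MCF10A-SNAI1 cells. FOXO protein was not measured here, and whether it was active was not tested. The lists were chosen with earlier results of these data known, so the counts are not independent evidence.

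**Figure D4:**
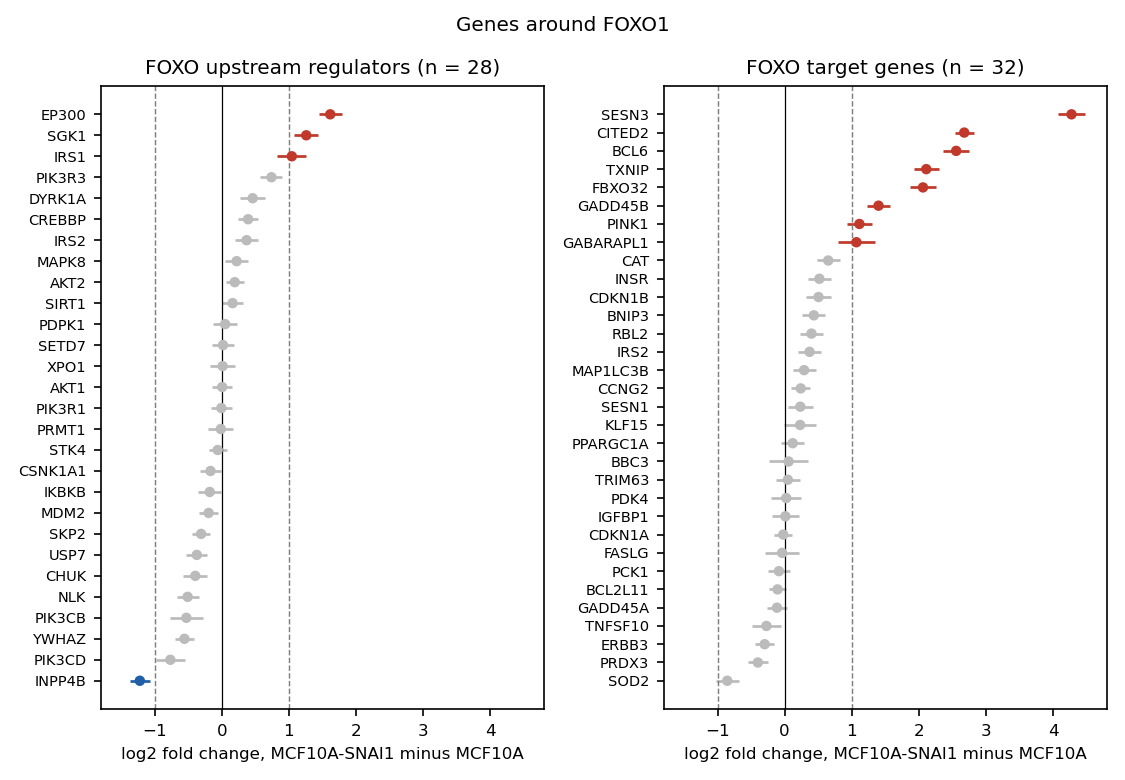
Log2 fold change (MCF10A-SNAI1 minus MCF10A) with 95% interval from limma on 3 arrays per line, for measured upstream regulators (left) and target genes (right) of FOXO proteins. Red marks genes called higher, blue called lower and grey not called, and dashed lines mark 2-fold; SESN3 lies farthest out at 4.27.

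Gene lists around SOX factors are set beside all genes, of which 5.64% were called and 42.3% had an unadjusted p below 0.05. In lists of this size, a count of 0 or 1 call is near that share. For cartilage, 0 of 13 measured genes that SOX5, SOX6 and SOX9 control were called by limma or by the methods' t-test, and 2 had an unadjusted p below 0.05. These were MATN3, a cartilage matrix gene, at 0.67, and the receptor FGFR3 at -0.74, both at an adjusted p below 0.01. The median log2 fold change of the list was 0.0126. None of 15 neural crest, melanocyte and glial genes of the SOX group E was called by either test, and 4 had an unadjusted p below 0.05. TFAP2A, a neural crest and epithelial factor, was lower but under 2-fold at -0.79 (limma adjusted p = 1.09e-04). Of 14 partners of SOX2 in pluripotent cells, only KLF4 was called, lower at -1.42 (8.76 and 7.34, adjusted p = 7.3e-06 from limma). KLF4 is also an epithelial differentiation factor. The medians of these lists were -0.0486 and -0.053, against -0.0132 for all genes.

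Arrays of a line did not rank these genes evenly. Replicate 1 read highest of its line for 31 of the 55 genes in MCF10A (56.4%, against 34% of all genes) and for 36 in MCF10A-SNAI1 cells (65.5%, against 39.2%). Replicate 2 read lowest for 30 of the 55 genes in either line (54.5%, against 34.3% and 31.7% of all genes). The median deviation from the line's mean was 0.0506 and 0.0687 for replicate 1 and -0.0545 and -0.0645 for replicate 2. Single genes deviated more, such as SOX15, at 8.40 on MCF10A replicate 1 against a mean of 8.12 for the line, and FOXP4, at 7.36 on replicate 2 against 7.61.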

How the data were processed

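Total RNA of 3 MCF10A and 3 MCF10A-SNAI1 samples was hybridized to Affymetrix HuGene arrays. The authors deposited log2 values of 33297 probe sets. GC RMA in GeneSpring GX is the normalization the article gives, whereas MAS5, GCOS and Affymetrix Expression Console 1.1 stand in the submitters' processing notes. Which one made the table, and the genome build of the array, are not given in the sources used here. Their background correction could not be varied here. The number of arrays limits the precision.

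The values were fitted as deposited with limma 3.58.1 in R 4.3.3, without a filter, with empirical Bayes moderation, 6.94 total degrees of freedom and p-values adjusted across all probe sets by Benjamini-Hochberg. Calls used the thresholds of the article (adjusted p under 0.01, more than 2-fold). The article's unpaired t-test was an alternative. The fit was tested on simulated data. Of the probe sets, 19460 had 1 gene symbol, 1754 several and 12083 were unnamed in the table used here. The brightest probe set stood for a gene. All 55 FOX and SOX genes had an entry in GRCh38.p14. No array coordinates are given.

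Named were all called genes, those at an adjusted p below 0.01, the 4 brightest uncalled genes of each family, and called genes of each list, up to 4 per direction. Further FOX and SOX genes, FOXO targets beyond 4, and uncalled list genes were chosen after their values were seen. The members and the 11 gene lists were chosen with earlier results of these data known. Alternatives were quantile normalization, median centring, a replicate block, leaving out each array, removing dim probe sets at the median or at percentile 20, robust moderation with a trend, other thresholds, other symbols and the mean of a gene's probe sets.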

Additional observations from a re-analysis of the deposited data

How the results depend on the processing

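SOX15 and FOXP1 were called lower, and no FOX or SOX gene was called higher, under every alternative that kept the fold threshold. Of 41 named genes, 28 kept direction and side of the threshold under all alternatives. Without the fold threshold, 3 FOX and SOX genes were higher and 4 lower, 5 of them FOX and 2 SOX genes. This setting also passed 15 FOXO regulators, 16 FOXO targets, 2 cartilage genes, 1 gene each of the SOX group E, Hedgehog and cilium lists, and 4279 of all genes, because it adds every gene under 2-fold. With the replicate number as a block, 3 FOX and SOX genes (SOX15, FOXP1 and FOXO1) had an adjusted p below 0.01, against 7. Over all probe sets, deviations of arrays with the same number correlated at 0.115, 0.122 and -0.006 for replicates 1, 2 and 3. Arrays with unlike numbers gave -0.134 to 0.034. In the FOX and SOX genes, replicate 1 most often read highest and replicate 2 lowest in both lines. The block took the standard error of FOXO1 from 0.119 to 0.062. The labels do not say that the numbers pair samples, and the main fit did not pair them. Whether they mark a shared batch was not tested. The block changed no call in the FOX and SOX genes or the FOXO lists. The methods' t-test also gave 3 (SOX15, FOXP1 and FOXK2). Leaving out each array gave 3 to 5 such genes and 0 to 1 called Hedgehog gene. Near 0, direction turned for SOX4 at -0.0021 and SOX2 at -0.0004 with quantile normalization, and at -0.0017 and -0.0067 with median centring. With each array left out, it turned within the ranges -0.0434 to 0.041 for SOX4, -0.035 to 0.0456 for SOX2, -0.0393 to 0.154 for SOX3, -0.1267 to 0.0746 for FOXO3 and -0.1227 to 0.0496 for FOXP3. The cause of these changes was not tested. Quantile normalization and median centring also took SOX6 past an adjusted p of 0.01, to 0.0135 and 0.0133.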

Other observations

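Other gene lists around FOX and SOX factors are read beside all genes, of which 5.64% were called and 42.3% had an unadjusted p below 0.05. Of 17 measured endothelial genes that SOX group F factors control, 0 were called by limma or the methods' t-test and 1 had an unadjusted p below 0.05, while the group F genes SOX7, SOX17 and SOX18 themselves spanned -0.38 to 0.14. The median of the endothelial list was -0.0252, and those of the cilium and Hedgehog lists described next were 0.0184 and 0.038. Of 15 motile cilium genes under FOXJ1, 0 were called by either test and 2 had an unadjusted p below 0.05. DNAH5, an axonemal dynein, was higher but under 2-fold at 0.38 (limma adjusted p = 0.00324).

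Of 13 measured Hedgehog pathway genes, which act upstream of FOXF1, FOXF2 and FOXL1, 0 were called by limma or the methods' t-test and 3 had an unadjusted p below 0.05. PTCH1, the Hedgehog receptor and a target of the pathway, was higher but just under 2-fold, at 6.37 in MCF10A and 7.32 in MCF10A-SNAI1 cells (log2 fold change 0.95, SE 0.075, limma adjusted p = 1.38e-04). It was called without MCF10A-SNAI1 replicate 1. FOXF2 and FOXQ1, which lie on chromosome 6 with 1 protein-coding gene between them, had log2 fold changes of 0.19 and 0.07, and neither passed.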
